A study of Mus musculus with 2 samples.

Results

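The motile cilia genes described here are 44 mouse genes chosen by name, of 43346 mouse gene identifiers in the deposited tables. All 44 were found. They were divided by role into 6 regulators, 13 dynein arm genes, 4 radial spoke genes and 21 genes for other parts of the axoneme, the microtubule shaft of the cilium. The RNA came from whole ovary of adult female C57BL/6J mice aged 8 weeks, described as littermates, with no treatment given in the labels. It was measured in 2 libraries, replicate 2 and replicate 1, which make up 1 group. The libraries were stranded, made from poly(A)+ RNA over 200 nucleotides and read over 76 bases from each end. The labels number them as biological replicates but give the same donor record for both, so the spread between them may be technical. Replicate 2 held 34930860 counts over all genes and replicate 1 held 41124061.

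A motile cilium beats because dynein motors, fixed in rows on the outer microtubule doublets, slide the doublets against each other, while radial spokes and a central pair of microtubules time the stroke. Cells with many such cilia line the oviduct, where they move the egg, and also the airways and the ventricles of the brain. In these cells Gmnc and Mcidas start the program, Ccno helps to make the many basal bodies, and Foxj1 with the Rfx factors turns on the genes of the axoneme.

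Motile cilia transcripts were present at clear levels in both ovary libraries, and their levels spread widely within the program. With detection set at a TPM of at least 1 in both libraries, 35 of the 44 genes were detected (79.6%), against 13312 of all 21474 protein-coding genes (62.0%). TPM is a level per length, scaled to the same total in each library. The median of the mean TPM was 4.36 over the motile cilia genes and 4.45 over all protein-coding genes, and 22 of the 44 genes lay above the median protein-coding gene. By mean TPM, 8 genes stood over 20, 12 between 5 and 20, 16 between 1 and 5, and 8 under 1. Together the 44 genes held 753 TPM in replicate 2 and 664 TPM in replicate 1. The 3 highest, Tppp3, Foxj1 and Tmem212, held 57.7% of that sum in replicate 2 and 50.03% in replicate 1. In whole tissue, fewer ciliated cells and less RNA per ciliated cell cannot be told apart.

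**Figure D1:**
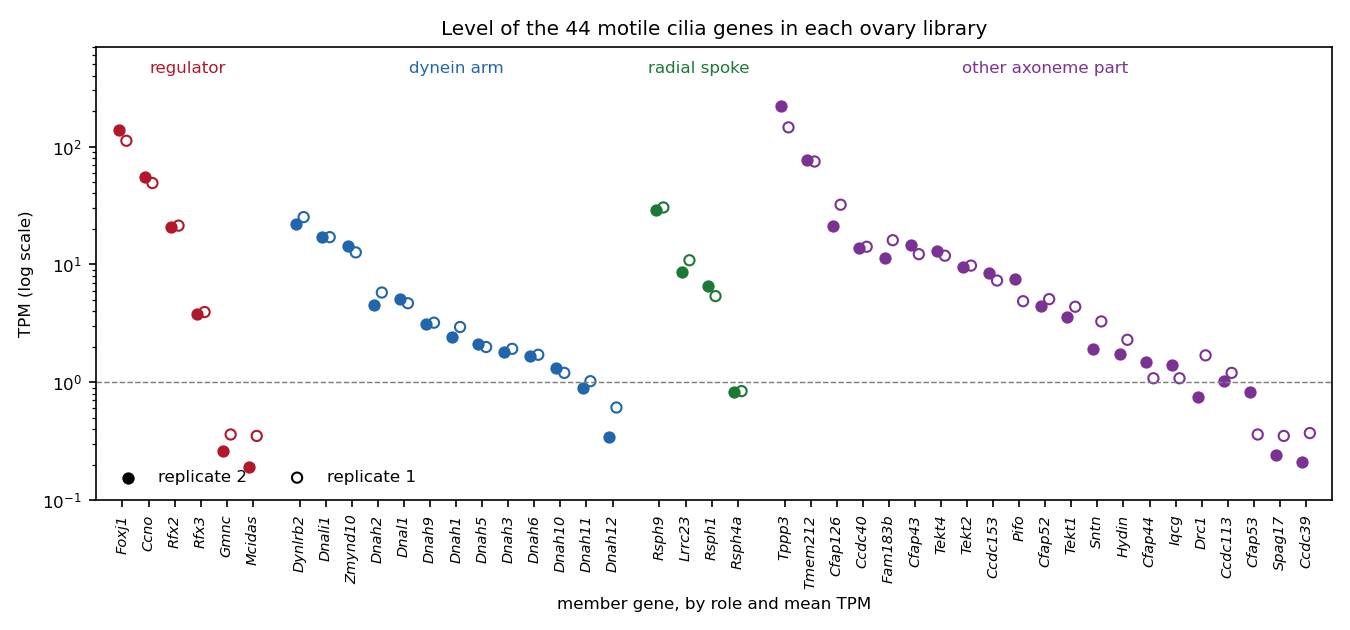
TPM on a log scale of each of the 44 genes, grouped by role and ordered by mean TPM, with replicate 2 as filled and replicate 1 as open points and a dashed line at 1 TPM. Foxj1, Ccno, Tppp3 and Tmem212 stand highest, most dynein heavy chains lie near 2 TPM, and Mcidas and Gmnc lie near 0.3 TPM in both libraries.

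The regulators fell into a high and a low set. Foxj1, the forkhead factor that defines the motile cilium program (chr11:116330704-116335399, minus strand, mm10), stood at 137 TPM in replicate 2 and 112 TPM in replicate 1, a mean of 125 ± 17.9 (SD, n = 2). Ccno, which acts in the amplification of centrioles (chr13:112987802-112990777, plus strand), stood at 54.8 TPM in replicate 2 and 49.0 TPM in replicate 1. Rfx2, a factor that binds the X-box of ciliary promoters, stood at 20.96 TPM in replicate 2 and 21.3 TPM in replicate 1. These 3 were well detected, and Foxj1 stood higher than 93.6% of protein-coding genes. Rfx3, a factor of the same family that also serves cells with a single cilium, was lower, with 3.81 TPM in replicate 2 and 3.94 TPM in replicate 1.

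The pair that acts first in the program was near the limit of detection. Mcidas, which follows Ccno on the same strand (chr13:112993845-113000394), had 10 counts and 0.19 TPM in replicate 2, and 22 counts and 0.35 TPM in replicate 1. Gmnc had 25 counts and 0.26 TPM in replicate 2, and 41 counts and 0.36 TPM in replicate 1. Neither gene reached 1 TPM in a library, so Ccno, 51.9 TPM on average, and Mcidas, 0.27 TPM, differed widely although they lie side by side. The differences among Foxj1, Ccno, Rfx2 and Rfx3 were each larger than the spread between the libraries, while Gmnc and Mcidas did not differ from each other beyond it.

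Dynein arm genes had a median of 2.69 TPM, and 11 of 13 were detected. The highest were genes of small subunits and of assembly. Dynlrb2, a roadblock-type light chain, stood at 21.8 TPM in replicate 2 and 25.2 TPM in replicate 1. Dnali1, a light intermediate chain of the inner arms, stood at 16.95 TPM in replicate 2 and 17.03 TPM in replicate 1. Zmynd10 was placed here by its role in putting the arms together before they enter the cilium, and had 14.2 TPM in replicate 2 and 12.6 TPM in replicate 1.

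The heavy chains, which hold the motor domain, were lower per length. Dnah2 of the inner arms was the highest of them, with 4.55 TPM in replicate 2 and 5.77 TPM in replicate 1. The lowest were Dnah11 of the outer arms, with 0.90 TPM in replicate 2 and 1.02 TPM in replicate 1, and Dnah12 of the inner arms, with 0.34 TPM in replicate 2 and 0.61 TPM in replicate 1. Outer arm heavy chains (Dnah5, Dnah9 and Dnah11) had a median of 2.04 TPM, and inner arm heavy chains (Dnah1, Dnah2, Dnah3, Dnah6, Dnah10 and Dnah12) had a median of 1.78 TPM. The ranges of both groups overlapped, from 0.96 to 3.17 TPM for the outer arms and from 0.475 to 5.16 TPM for the inner arms. The remaining dynein arm gene, the light chain gene Dnal1, stood at 5.05 TPM in replicate 2 and 4.68 TPM in replicate 1.

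Among the 4 radial spoke genes, 3 were detected, and the median was 7.85 TPM. Rsph9, a spoke head gene, stood at 28.8 TPM in replicate 2 and 30.4 TPM in replicate 1. Lrrc23 stood at 8.59 TPM in replicate 2 and 10.8 TPM in replicate 1. Rsph1, another head gene, stood at 6.58 TPM in replicate 2 and 5.38 TPM in replicate 1. Their partner in the spoke head, Rsph4a, was far lower, with 0.83 TPM in replicate 2 and 0.84 TPM in replicate 1, so the head genes measured here did not share one level.

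Genes for other parts of the axoneme had a median of 4.75 TPM, and 17 of 21 were detected. Tppp3, a tubulin-binding protein that is also made in cells without motile cilia, such as those of tendon sheaths, stood at 220 TPM in replicate 2 and 146 TPM in replicate 1 (chr8:105467493-105471526, minus strand). Tmem212, a membrane protein gene, stood at 76.8 TPM in replicate 2 and 74.7 TPM in replicate 1. Cfap126, a protein of the doublet wall, stood at 21.2 TPM in replicate 2 and 32.1 TPM in replicate 1. Tppp3 and Cfap126 differed between the libraries in opposite directions, and Tmem212 differed little.

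Ccdc40 and Ccdc39 encode a pair of coiled-coil proteins that set the spacing of the inner arms and spokes. Ccdc40 stood at 13.9 TPM in replicate 2 and 14.1 TPM in replicate 1. Ccdc39 was among the lowest of the 44 genes, with 0.21 TPM in replicate 2 and 0.37 TPM in replicate 1. At the gene level this pair thus lay far apart in both libraries. Protein-coding forms held 27.7% of the TPM of Ccdc40 in replicate 2 and 19.4% in replicate 1, so coding RNA lay less far apart. Spag17, a central pair gene, was also low, with 0.24 TPM in replicate 2 and 0.35 TPM in replicate 1. Hydin, another central pair gene, stood at 1.73 TPM in replicate 2 and 2.29 TPM in replicate 1. The other genes of this class were Fam183b, Cfap43, Tekt4, Tekt2, Ccdc153, Pifo, Cfap52, Tekt1, Sntn, Cfap44, Iqcg, Drc1, Ccdc113 and Cfap53, which ranged from 13.7 TPM for Fam183b to 0.590 TPM for Cfap53. The 3 tektins, filament proteins inside the doublets, stood in the order Tekt4 (12.4 TPM), Tekt2 (9.62 TPM) and Tekt1 (3.98 TPM).

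RefSeq promoter windows on GRCm38.p6, which is the mm10 build, were matched for 38 of the 44 genes and gave 45 windows, from 250 bases before to 50 bases after each start. Cfap53, Dnah3, Foxj1, Rsph1, Rsph4a and Tppp3 had no entry. The windows were searched on both strands for the core of the X-box bound by Rfx factors, GTTGCCA, for its shorter form GTTGCC, which every core contains, and for a forkhead site, TGTTTAC. The stretches that follow are read on the strand of the gene, from 5′ to 3′, and their capitals mark the match, which reads TGGCAAC where it lies on the other strand. The first set holds the cores within 70 bases before a start, shown because they lie closest to the start.

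Cfap44: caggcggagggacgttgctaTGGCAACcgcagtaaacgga
Hydin: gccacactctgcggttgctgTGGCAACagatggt
Pifo: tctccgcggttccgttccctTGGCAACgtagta
Drc1: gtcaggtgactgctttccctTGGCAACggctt
Iqcg: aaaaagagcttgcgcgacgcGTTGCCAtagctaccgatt
Lrrc23: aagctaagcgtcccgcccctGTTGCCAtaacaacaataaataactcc
Tekt1: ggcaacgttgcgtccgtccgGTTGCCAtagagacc
Sntn: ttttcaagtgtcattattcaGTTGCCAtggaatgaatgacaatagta

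The first capital lies 20 bases before the start in Cfap44, 14 in Hydin, 13 in Pifo, 12 in Drc1, 19 in Iqcg, 39 in Lrrc23, 15 in Tekt1 and 66 in Sntn. Pifo and Tekt1 have more than 1 window, and the core lay only in the window shown. For Pifo that is an inner start, and the window at the annotated start of the gene (chr3:106014597-106014896) held no core. Cfap44 and Lrrc23 each hold a further core, at 130 and 158 bases before the start. The stretch of Drc1 lies at chr5:30281361-30281392 and that of Hydin at chr8:110266943-110266976, both on the plus strand. Both regulators with a core, the neighbours Ccno and Mcidas, have it farther out, 219 and 195 bases before the start.

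Ccno: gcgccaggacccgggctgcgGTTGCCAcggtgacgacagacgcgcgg
Mcidas: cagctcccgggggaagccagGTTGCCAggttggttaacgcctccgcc

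The 7-letter core was found in 12 of 45 windows (26.7%), against 1439 of all 32851 promoter windows of the same table (4.38%). By gene these were 12 of 38, namely 2 of 5 regulators, 2 of 12 dynein arm genes, 1 of 2 radial spoke genes and 7 of 19 genes for other axoneme parts. In 10 of these genes a match lay before the start, and in Dnah10 and Zmynd10 it lay after. The shorter form was found in 46.7% of the windows, against 12.5% of all windows. The forkhead site was found in 2 windows (4.44%), those of Cfap43 and Sntn, against 3.65% of all windows. The full inverted repeat, GTNNCCATGGNNAC, was found in 3 windows (6.67%), those of Cfap126, Rsph9 and Zmynd10, against 0.505% of all windows. The match in Cfap126, in a window with no core, begins 82 bases before an inner start (window chr1:171122795-171123094). The other windows of Cfap126, including that at the annotated start of the gene, held no match.

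Cfap126: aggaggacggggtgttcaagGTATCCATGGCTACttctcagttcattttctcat

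A complete X-box is made of cores that face each other, so each core was set against the 7 letters facing it. At least 5 of those 7 letters matched a facing core in 5 of 14 matches in these windows (35.7%), against 17.6% of the 1484 matches in all other promoters. The median was 4 letters, against 2 letters in the other promoters. A letter match describes these windows and is no measure of binding.

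The only comparison the design allows is of replicate 2 with replicate 1, which shows how far the motile cilia genes vary between libraries of one tissue. Ratios were taken from rounded expected counts scaled by TMM, for genes averaging 20 or more counts, and are log2 of replicate 2 over replicate 1. Each gene had a two-sided exact binomial test, Benjamini-Hochberg adjusted over all 15939 genes tested at 0.05, which compared the reads of these 2 libraries and not conditions. Of 42 motile cilia genes tested, 11 (26.2%) passed, against 56.1% of all genes tested. Of them 5 were higher in replicate 2, Foxj1, Ccno, Cfap43, Pifo and Tppp3, against a background of 29.1% of all genes. The other 6 were lower, Dnah1, Dnah2, Sntn, Hydin, Cfap126 and Drc1, against a background of 27.0%. Drc1 alone of the 42 differed over 2-fold, against 3.99% of all genes. Mcidas, and Cfap53 with 8 counts in replicate 2 and 9 in replicate 1, were not tested.

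The median log2 ratio of the 42 genes was 0.003, against -0.006 over all genes tested, and the median size of the log2 ratio was 0.22, against 0.23. The share that passed differed by depth. At a mean count from 20 to 200 it was 3 of 16 motile cilia genes (18.8%), against 30.1% of all genes tested. From 200 to 1000 it was 3 of 19 (15.8%), against 53.7%, and from 1000 up 5 of 7 (71.4%), against 74.3%. The library totals behind these ratios include every gene. Scaled to the spike-in total instead, all log2 ratios shifted by -0.43, which left 2 of the 42 genes above 0, Pifo and Tppp3, in place of 22, so the directions given are relative to all genes.

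**Figure D2:**
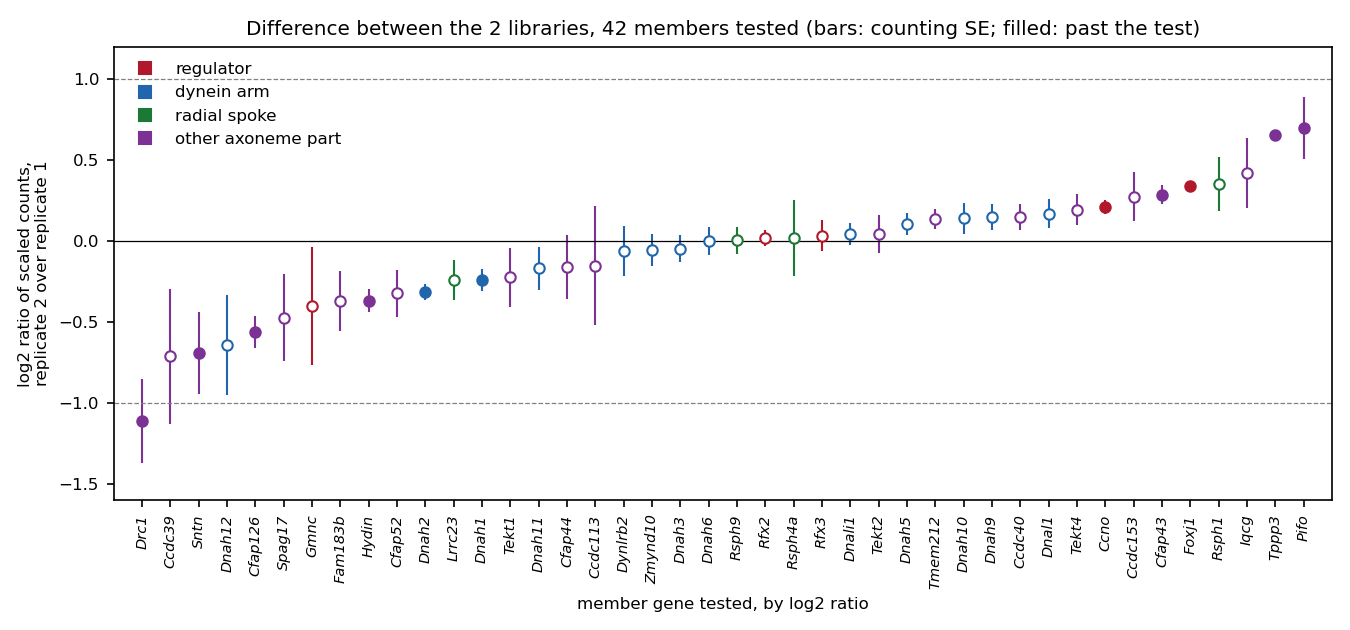
Log2 ratio of TMM-scaled counts, replicate 2 over replicate 1, for the 42 genes tested, ordered by ratio, with bars for the counting SE and dashed lines at 2-fold. Filled points passed the exact binomial test: 6 lower and 5 higher, and Drc1 alone lies beyond 2-fold.

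Among the regulators, Foxj1 and Ccno were higher in replicate 2. Foxj1 had 8159 counts in replicate 2 and 7929 in the deeper replicate 1, a log2 ratio of 0.34 ± 0.02 (counting SE; two-sided exact binomial test, adjusted p = 2.69e-49), or 0.22 with the GC trend over all genes removed. Ccno had 2249 counts in replicate 2 and 2388 in replicate 1, a log2 ratio of 0.21 ± 0.04 (adjusted p = 2e-06, same exact test), or 0.13 with the GC trend removed. Rfx2, with 1585 counts in replicate 2 and 1925 in replicate 1, had a log2 ratio of 0.02 ± 0.05 (adjusted p = 0.782, same exact test). Rfx3 had a ratio of 0.03 ± 0.10 and Gmnc of -0.40 ± 0.37, and neither passed. Regulators thus differed between these libraries by 0.34 or less on the log2 scale wherever the count was above 50.

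In the dynein arms, 2 of 13 genes passed (15.4%, against 56.1% of all genes tested), both of them inner arm heavy chains and both lower. Dnah2 had 1464 counts in replicate 2 and 2241 in replicate 1, a log2 ratio of -0.31 ± 0.05 (two-sided exact binomial test, adjusted p = 3.23e-10). Dnah1 had 756 counts in replicate 2 and 1099 in replicate 1, a log2 ratio of -0.24 ± 0.07 (adjusted p = 0.00107, same exact test). None of the 3 outer arm heavy chains passed, with log2 ratios of 0.11 for Dnah5, 0.15 for Dnah9 and -0.17 for Dnah11. Whether inner and outer arm genes differed from each other was not tested. No radial spoke gene passed, and their log2 ratios ran from -0.24 for Lrrc23 to 0.35 for Rsph1.

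Of the genes for other axoneme parts, 3 were higher and 4 lower of 20 tested, against 29.1% higher and 27.0% lower of all genes tested. Tppp3 had 5056 counts in replicate 2 and 3945 in replicate 1, a log2 ratio of 0.66 ± 0.03 (two-sided exact binomial test, adjusted p = 2.2e-101). Pifo, a gene first described for the disassembly of the primary cilium, had 130 counts in replicate 2 and 98 in replicate 1, a ratio of 0.70 ± 0.19 (adjusted p = 0.000632, same exact test). Iqcg, of the link between neighbouring doublets, had a ratio of 0.42 ± 0.22, from 94 counts in replicate 2 and 86 in replicate 1, and did not pass (adjusted p = 0.0851, same exact test). Cfap43, which tethers an inner arm, passed at 0.29 ± 0.06 (adjusted p = 4.03e-06, same exact test), and at 0.77 without a transcript that a newer annotation gives to another gene, which would place it above Pifo.

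On the lower side, Drc1, which builds the nexin link between doublets, had 42 counts and 0.75 TPM in replicate 2, and 113 counts and 1.69 TPM in replicate 1. Its log2 ratio was -1.11 ± 0.26 (two-sided exact binomial test, adjusted p = 2.33e-05). Sntn, which encodes a protein of the cilium tip, had 49 counts and 1.93 TPM in replicate 2, and 98 counts and 3.28 TPM in replicate 1, a ratio of -0.69 ± 0.25 (adjusted p = 0.0124, same exact test). Ccdc39 had a ratio as low, -0.71 ± 0.41, but with 18 counts in replicate 2 and 37 in replicate 1 it did not pass (adjusted p = 0.124, same exact test). Cfap126 had 324 counts in replicate 2 and 589 in replicate 1, a ratio of -0.56 ± 0.10 (adjusted p = 4.85e-08, same exact test). Hydin had 664 counts in replicate 2 and 1054 in replicate 1, a ratio of -0.37 ± 0.07 (adjusted p = 8.67e-07, same exact test). Spag17, the other central pair gene, had a ratio of -0.47 ± 0.27 from 46 counts in replicate 2 and 79 in replicate 1, and did not pass.

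**Figure D3:**
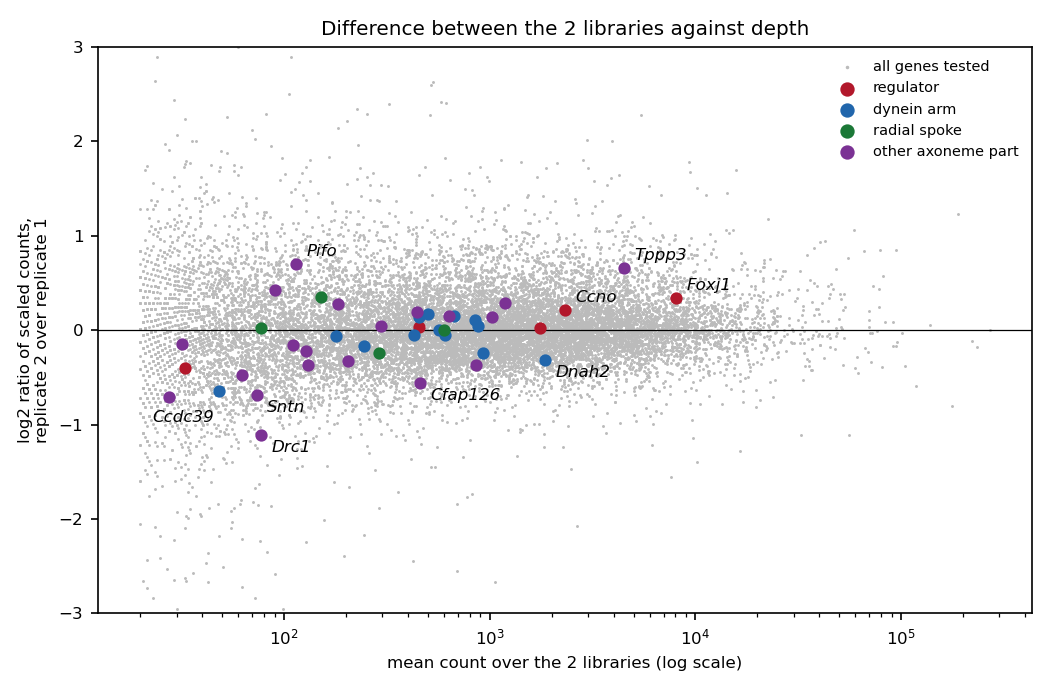
Log2 ratio of replicate 2 over replicate 1 against the mean count on a log scale, with the 15939 genes tested in grey and the 42 motile cilia genes coloured by role; 36 genes beyond 3 on the log2 scale are not drawn. The motile cilia genes lie inside the cloud of all genes, with the low points at low counts and Foxj1 and Tppp3 above 0 at high counts.

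The log2 ratios differed by level. Among the 22 tested genes with a mean under 5 TPM the median log2 ratio was -0.16, against -0.05 over all genes of that level, and 0 were higher and 4 lower (18.2%), against 766 higher and 906 lower (17.7%) of all 5110 genes of that level. Between 5 and 20 TPM it was 0.10 over 12 genes, against -0.01, and 2 were higher and 1 lower (16.7% and 8.33%, against 28.1% and 28.4%). Over 20 TPM it was 0.08 over 8 genes, against 0.02, and 3 were higher and 1 lower (37.5% and 12.5%, against 41.0% and 33.3%). Across the 42 genes Spearman's rho of the log2 ratio was 0.45 with the mean count and 0.32 with GC content, against 0.10 and 0.14 across all genes tested. These genes share both libraries, so the values describe those libraries. For the 10 genes over 6000 bases long, mostly heavy chains, the median was -0.11, against -0.02 over all genes of that length, and for the 19 genes under 2000 bases it was 0.004, against -0.02. With the linear trend of the ratio with GC content removed, the log2 ratio was 0.58 for Tppp3 and the median of the 42 genes was -0.04. The part of depth and length in the ratios was not tested.

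Exons of 16 of the 44 genes overlap an exon of another gene on the opposite strand, among them those of the lower genes Dnah1, Dnah2 and Hydin. The libraries were stranded, but no source used here says whether the counting used strand, so these values are uncertain to that extent. Cfap43 has a further overlap on its own strand. Its leading transcript, with 59.6% of the gene's TPM in replicate 2 and 69.9% in replicate 1, is assigned by the newer GENCODE M21 to the neighbour Itprip. Without that transcript Cfap43 stood at 5.94 TPM in replicate 2 and 3.67 TPM in replicate 1, a mean of 4.81 ± 1.61 (SD, n = 2), and this gave the ratio of 0.77 above.

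Of the 44 genes, 18 have a single annotated transcript form. Of the rest, 21 averaged 100 or more counts, and for them the authors' estimate of each form's percent of the gene's TPM was compared between libraries. The same form led in both libraries in 17 of 21, and in 15 of these 17 it was a protein-coding form. These 15 include Cfap43, whose leading form is the transcript that GENCODE M21 assigns to Itprip. The shared form held over 90% in both libraries in 8. The lead differed between libraries in Rfx3, Dnah10, Lrrc23 and Cfap44. In Lrrc23 the form that led in replicate 2 held 86.1% there and 35.2% in replicate 1. Both leading forms are protein-coding, of 1444 and 1470 bases. By the authors' posterior mean estimate the lead also changed. The form of 1444 bases held 62.1% in replicate 2 and 28.5% in replicate 1, and that of 1470 bases held 17.5% and 49.9%. How well the reads separate these forms was not tested.

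In some genes most of the TPM in either or both libraries did not belong to a coding form. In Ccdc40 a processed transcript of 1662 bases led, with 52.8% in replicate 2 and 61.5% in replicate 1, and protein-coding forms held 27.7% in replicate 2 and 19.4% in replicate 1. In Dnah11 a form annotated for nonsense-mediated decay led, with 79.2% in replicate 2 and 75.6% in replicate 1. The coding form of Dnah11 stood at 0.19 TPM in replicate 2 and 0.25 TPM in replicate 1, which is below the gene's own level. Dnah9 was unlike these, as both of its main forms are protein-coding. Its leading form is 6031 bases long and held 45.2% in replicate 2 and 58.8% in replicate 1. The form of 13798 bases held 40.1% in replicate 2 and 29.5% in replicate 1. In Zmynd10 the coding form held 49.1% in replicate 2 and 63.7% in replicate 1, while the larger of its retained-intron forms held 23.0% in replicate 2 and 10.1% in replicate 1. The TPM of Zmynd10 was higher in replicate 2 while its log2 ratio of counts was -0.05, and the short retained-intron forms weigh more in TPM than in counts. How far the gene levels reflect translatable RNA was not tested.

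**Figure D4:**
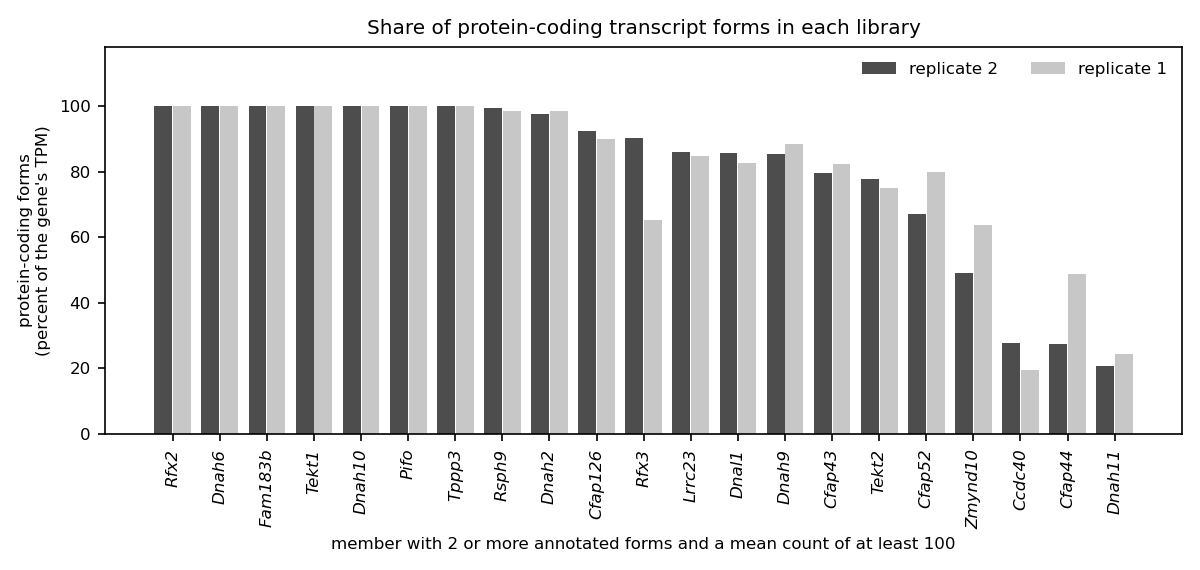
Percent of each gene's TPM held by protein-coding transcript forms in replicate 2 (dark bars) and replicate 1 (light bars), for the 21 genes with 2 or more forms and an average of at least 100 counts. Most genes lie above 60%, and Ccdc40, Cfap44 and Dnah11 lie below 50% in both libraries. The bars of Cfap43 include the transcript that GENCODE M21 assigns to Itprip. Its own coding form held 20.05% in replicate 2 and 12.5% in replicate 1.

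Other genes of the motile cilium, 128 genes in 6 lists, were set beside these. Of them 98 were detected, with a median of 3.96 TPM, and 23 were higher and 23 lower of 117 tested, with a median log2 ratio of -0.03. That is 19.7% in each direction, against 29.1% higher and 27.0% lower of all genes tested. Of the 16 other multiciliation regulators 12 were detected, with 5 higher and 3 lower of 14 tested, and the highest were the cell cycle factors E2f4 (154 TPM) and Tfdp1 (46.3 TPM), which partner Gmnc and Mcidas and also serve dividing cells. Deup1, which builds the deuterosome that makes centrioles, had 10 counts in replicate 2 and 32 in replicate 1, a log2 ratio of -1.30 ± 0.52 (two-sided exact binomial test, adjusted p = 0.0154). Of these 117 genes only Deup1 was over 2-fold, and at counts under 50 its difference cannot be judged.

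Of 15 other dynein arm subunits 8 were detected, with 0 higher and 1 lower of 13 tested, and the highest were Ccdc114 (18.5 TPM) and Dnaic2 (16.8 TPM), both of the outer arm. Of 11 assembly factors 9 were detected, with 2 higher and 0 lower of 9 tested, led by Pih1d1 (58.6 TPM) and Heatr2 (47.3 TPM). Of 27 other spoke, central pair and nexin link genes 23 were detected, with 4 higher and 9 lower of 27 tested. Their highest, Rsph3a (35.6 TPM) and Rsph3b (35.3 TPM), are near-identical copies whose reads the counting could split either way. Of 30 genes of the inner doublet and shaft 20 were detected, with 5 higher and 3 lower of 26 tested, led by the tubulin genes Tuba1a (870 TPM) and Tubb4b (606 TPM), which many cells use. Of 29 intraflagellar transport genes, needed for cilia of every kind, 26 were detected, with 7 higher and 7 lower of 28 tested, led by Ift20 (110 TPM) and Ift27 (63.3 TPM). Each list held genes that passed in at least one direction, and none of the medians of the log2 ratio lay beyond 0.09 in size. The share past the test in either direction ran from 7.69% for the dynein arm subunits to 57.1% for the regulators, against 56.1% of all genes tested. That last share differed by depth, with 30.1% at a mean count from 20 to 200 and 74.3% from 1000 up. The median mean count was 131 for the dynein arm subunits, 325 for the regulators and 727.5 over all genes tested. The part of depth in these shares was not tested.

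**Figure D5:**
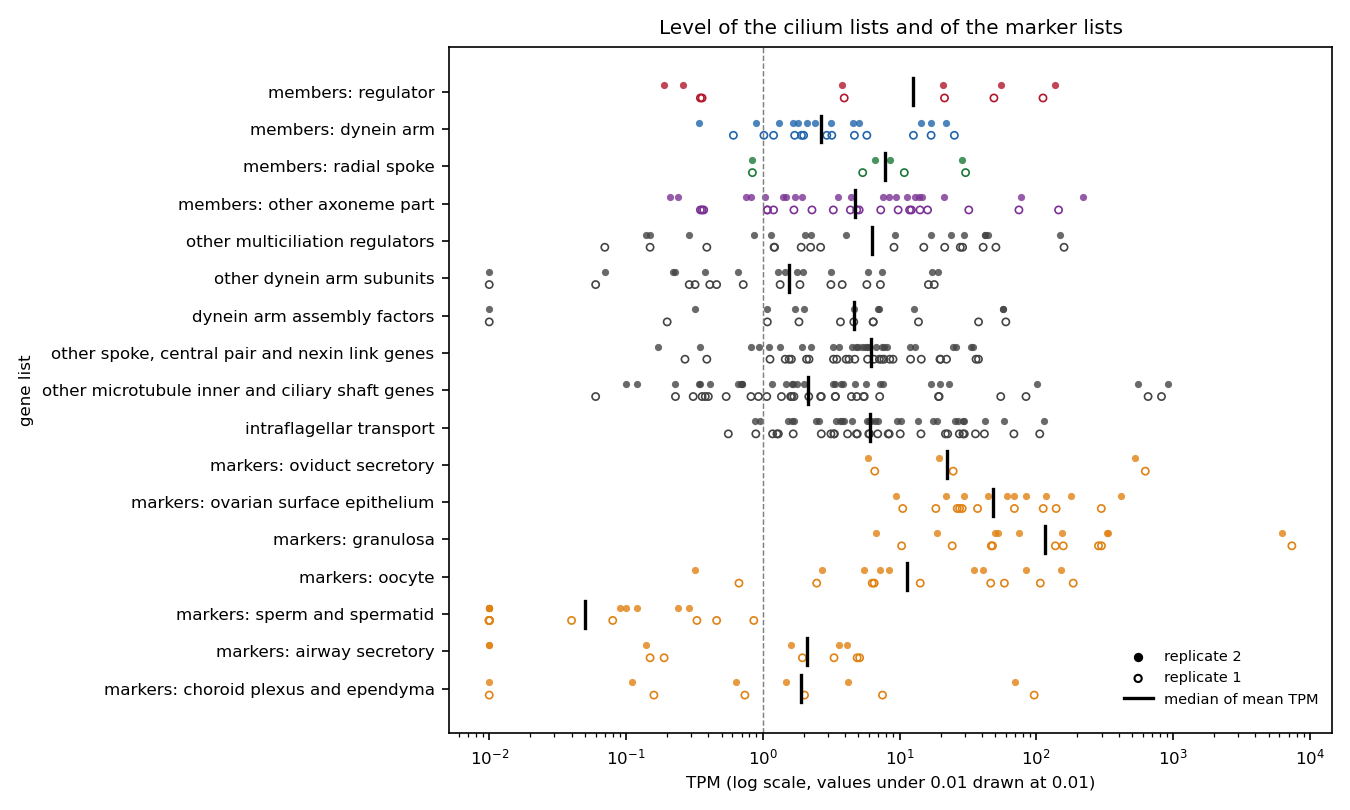
TPM on a log scale of every gene of the 4 role classes, the 6 lists of other cilium genes and the 7 marker lists, with replicate 2 as filled points above replicate 1 as open points, black bars for the median of the mean TPM and a dashed line at 1 TPM. Ovarian and oviduct markers stand above 1 TPM apart from 1 oocyte gene, while all 10 sperm and spermatid markers lie below it.

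The gene set is named for the oviduct, but the libraries are labelled ovary, and whole-tissue RNA does not show which organ or cell the transcripts came from. Markers of several cell types were therefore set beside it. Oviduct secretory markers were all detected, with Ovgp1 at 528 TPM in replicate 2 and 627 TPM in replicate 1, Pax8 at 19.6 TPM in replicate 2 and 24.7 TPM in replicate 1, and Pax2 at 5.84 TPM in replicate 2 and 6.59 TPM in replicate 1. Ovgp1 and Pax8 were lower in replicate 2, with log2 ratios of -0.20 and -0.31, and Pax2, at 0.05, did not pass. Of the 42 motile cilia genes tested, 5 passed as higher (11.9%) and 6 as lower (14.3%). Over all genes tested these shares were 29.1% and 27.0%. Whether secretory and motile cilia genes varied together was not tested. The summed level of the 3 secretory markers was 553 TPM in replicate 2 and 658 TPM in replicate 1.

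The 10 genes listed as markers of the ovarian surface epithelium were all detected, and which epithelium their RNA came from was not tested. Of them 9 were higher and 0 lower (against 29.1% higher and 27.0% lower of all genes tested), with a median log2 ratio of 0.38. Their summed level was 1034 TPM in replicate 2 and 769 TPM in replicate 1. Krt19 (358 TPM), Krt8 (160 TPM) and Krt18 (115 TPM) were the highest of them. Granulosa markers together held 7302 TPM in replicate 2 and 8406 TPM in replicate 1, with 4 higher and 4 lower of 9 (44.4% each, against 29.1% higher and 27.0% lower of all genes tested), led by Inha (6837 TPM), Amh (317 TPM) and Inhbb (308 TPM). Oocyte markers together held 336 TPM in replicate 2 and 428 TPM in replicate 1, with 1 higher and 5 lower of 8 tested (12.5% higher and 62.5% lower), led by Zp3 (169 TPM), Gdf9 (95.5 TPM) and Zp1 (49.7 TPM). The defining markers of the labelled tissue were thus present. The median mean count was 3144 for the surface epithelium list and 5728 for the granulosa list. Of all genes tested with a mean count of 1000 or more, 74.3% passed in either direction. The part of these cell types in the ratios of Foxj1, Ccno and Tppp3 was not tested.

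Marker lists drawn up for other tissues that use the axoneme were represented weakly or in part. How particular each listed gene is to its tissue was not tested. None of the 10 sperm and spermatid markers was detected, and their summed level was 0.840 TPM in replicate 2 and 1.77 TPM in replicate 1. Prm2 (0.575 TPM), Spem1 (0.350 TPM) and Ldhc (0.215 TPM) were the highest of them, and Prm1, Tnp1, Akap4 and Smcp had 0 counts, which allows up to 3 counts in each library. The genes listed as airway secretory markers together held 9.50 TPM in replicate 2 and 15.6 TPM in replicate 1, with 3 of 6 detected. Sftpc, a surfactant gene of the lung alveoli and not of the airways, stood at 4.36 TPM and is part of that sum. Scgb3a1 stood at 3.74 TPM, and Scgb1a1 had 0 counts in replicate 2 and 36 in replicate 1. Of 6 genes listed for choroid plexus and ependyma together, 3 were detected, Folr1 (83.2 TPM), Ttr and Kl. Ttr stood at 1.48 TPM in replicate 2 and 7.51 TPM in replicate 1, and Kl at 4.21 TPM in replicate 2 and 2.02 TPM in replicate 1. Otx2 had 0 counts in both libraries. The ependyma had no list of its own, so its share in the RNA was not examined.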

How the data were processed

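RNA-seq of 2 mouse ovary libraries was analysed from gene and transcript tables on mm10 with GENCODE M4, per the accompanying notes. Their aligner and quantifier were not given in the sources used here. Expected counts (estimated read pairs) and TPM (per effective length, spike-ins included in the total) were deposited for genes and transcripts. The authors also deposited the percent of a gene's TPM that each transcript holds, and posterior mean versions. Symbols, coordinates and transcript types came from GENCODE M21 on the same build, which matched 42462 of 43346 identifiers. Promoters came from RefSeq. Tables on mm9 were not used here.

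The expected counts were rounded to integers. Genes averaging 20 or more counts were scaled by TMM (edgeR 4.0.16, R 4.3.3), and log2 ratios had a prior count of 1. A single group of 2 libraries allows no replicated test between them, so a two-sided exact binomial test with Benjamini-Hochberg adjustment was used. It was checked on simulated counts with counting error only, so the check does not cover any further spread between libraries. Standard errors and floors (3 counts for a count of 0) cover counting error only. Spike-ins took 0.986% of counts in replicate 2 and 0.764% in replicate 1 and were left out of totals. Alternatives used DESeq2 1.42.0 size factors, spike-in scaling and other filters, pseudocounts and adjustments.

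The 44 genes, the 13 other lists and the tests were chosen with earlier results of these data known. Values are given for every regulator and radial spoke gene, the 4 highest and 2 lowest of each other class, genes over 2-fold, the 3 largest and 3 smallest ratios, and the 2 highest (markers: 3) of each other list. Other genes named were chosen after their values were seen. Scripts ran in Python 3.11.15 with pandas 2.3.3, scipy 1.17.1, numpy 2.4.6 and, for figures, matplotlib 3.10.9.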

Additional observations from a re-analysis of the deposited data

How the results depend on the processing

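No paired analysis was possible because the design holds 1 group. With detection at 5 TPM, 18 of the 44 genes were detected, in place of 35. Over protein-coding genes alone, the median TPM was 4.88 for all 44 genes, 14.0 for regulators, 8.77 for radial spoke genes and 5.31 for other axoneme parts. With single libraries the median for other axoneme parts ran from 4.43 to 4.87 TPM. Spike-in scaling moved the median log2 ratio of the 42 genes to -0.43 and that of all genes tested to -0.44, with 36 genes past the test, 1 higher and 35 lower, and 4 over 2-fold. It gave ratios of -0.094 for Foxj1, -0.22 for Ccno, -0.15 for Cfap43, -0.42 for Rfx2 and -0.40 for Rfx3, and Pifo no longer passed. With Bonferroni adjustment 7 genes passed, 3 of them lower, and Dnah1, Sntn, Drc1 and Pifo were lost. At a mean count of at least 100, 0 genes were over 2-fold, and on log2(TPM + 1) also 0. With the TMM ratios of the 42 genes as first given, 6 were over 1.5-fold. The short X-box form was in 46.7% and the inverted repeat in 6.67% of windows. With the GC trend removed, the ratio was 0.22 for Foxj1, 0.13 for Ccno and 0.58 for Tppp3. The GC trend, the Cfap43 form and the short X-box form were chosen as alternatives after seeing the data. DESeq2 size factors, no filter, prior count 0.25 and posterior means lost none of the 11 calls, and DESeq2 size factors added Tmem212 (log2 ratio 0.14, two-sided exact binomial test, adjusted p = 0.0467). With 2 libraries from one donor record, neither the spread between animals nor differences in genes under 50 counts can be judged.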

Other observations

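Some cilium genes outside the 44 differed more between the libraries than most of them did; they were chosen after their values were seen. Kif3a, a motor subunit of intraflagellar transport, had 419 counts in replicate 2 and 877 in replicate 1, a log2 ratio of -0.77 ± 0.09 (two-sided exact binomial test, adjusted p = 4.3e-19), while its partner subunit Kifap3 had a log2 ratio of 0.47 ± 0.10 (adjusted p = 1.4e-05, same exact test). E2f5, a partner of the multiciliation factors, had 1721 counts in replicate 2 and 1276 in replicate 1, a log2 ratio of 0.73 ± 0.05 (adjusted p = 3.41e-42, same exact test).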
